A study of Mus musculus with 123 samples.

Results

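A set of 10 genes that handle fatty acids was followed through single mouse embryos of lines in which Oct4 or Sox2 can be removed. They are 2 fatty acid binding proteins (Fabp3, Fabp5), 2 acyl-CoA synthetases (Acsbg1, Acsl4), 2 enzymes of triglyceride synthesis (Dgat1, Dgat2), 2 proteins of the lipid droplet coat (Plin2, Plin3), the carnitine palmitoyltransferase Cpt1a and the transcription factor ChREBP (gene symbol Mlxipl). These 10 genes, of 29022 in the table, were chosen by symbol, and partly on the large differences of Fabp3, Mlxipl and Acsbg1 between KO and Ctrl inner cell masses (ICMs). The KO against Ctrl differences in ICMs are therefore given for these 10 genes as a description, without p-values. Nothing is read from the counts of members past the thresholds there. All 10 passed the detection filter (a UMI in 0.5 or more of the embryos at any 1 stage).

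Each library held the polyadenylated RNA of 1 embryo, sequenced at its 3′ ends with unique molecular identifiers (UMIs) to count molecules. Embryos of the Oct4 and Sox2 lines, with B6C3F1 given as background, were sired by males with 1 knocked-out allele (Pou5f1 +/mKO2 or Sox2 +/EGFP) on flox/flox females carrying Zp3-Cre, a transgene driven by an oocyte promoter. KO embryos thus lacked the maternal and the zygotic gene, and Ctrl embryos lacked the maternal gene and kept 1 paternal allele, so the Ctrl embryos were not wild type. In MWT embryos the mother had not lost the gene. There were 48 Ctrl, 48 KO and 27 MWT embryos in 16 groups. Morulae were whole embryos at E2.75. The early (E3.75) and the late (E4.5) ICMs came from embryos cultured from the cleavage stage in KSOM with 1 µM PD0325901, a MEK inhibitor, and were freed of outer cells by immunosurgery, so that stage, culture and isolation changed together. In 2 groups, Oct4 MWT early ICM and Oct4 MWT late ICM, the source name gives an earlier stage than the title, the former also lists no inhibitor, and the title was used. The summed level of 10 epiblast markers ran from 2228 to 4731 CPM in the former and from 2694 to 5458 CPM in the latter. It ran from 932 to 1405 CPM in the Oct4 MWT morulae. The ranges of the 2 ICM groups overlapped, so these markers cannot tell the early from the late stage.

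Fatty acid binding proteins carry long-chain fatty acids through the cytosol. Acyl-CoA synthetases couple these fatty acids to coenzyme A, after which they may be esterified by the DGAT enzymes into triglyceride and stored in droplets coated by perilipins, or passed by CPT1 into mitochondria for β-oxidation. ChREBP is a glucose-responsive transcription factor of lipid synthesis genes that binds DNA together with Mlx, and the preimplantation mouse embryo holds lipid droplets from the oocyte onwards.

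Library totals ran from 525755 to 1344035 UMIs per embryo, and levels are given as CPM, the UMIs of a gene scaled to a common library total, at which 1 CPM is about 1 UMI. Pou5f1, the gene of Oct4, was at 23.4 to 93.6 CPM in the Oct4 Ctrl ICMs and at 0 to 4.73 CPM in the Oct4-KO ICMs. Sox2 was at 72.6 to 299 CPM in the Sox2 Ctrl ICMs and at 7.74 to 36.4 CPM in the Sox2-KO ICMs. Lineage markers moved with the KO as well. In the order Oct4 early, Oct4 late, Sox2 early and Sox2 late ICM, 8, 10, 6 and 6 of 10 epiblast markers fell, and of 8 primitive endoderm markers tested 3, 5, 0 and 1 fell and 1, 2, 1 and 0 rose. Of 10 trophectoderm markers, 2 rose and 1 fell in Oct4-KO early ICMs, 8 rose and none fell in Oct4-KO late ICMs, 4 rose and none fell at the early stage of the Sox2-KO, and 3 rose and 1 fell in Sox2-KO late ICMs, by edgeR's quasi-likelihood test at the thresholds given with the tests below. A whole ICM was measured, so fewer cells of a type and less RNA per cell cannot be told apart.

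The proximal promoters are shown for the 3 genes whose level differed most between KO and Ctrl ICMs, because the factors removed bind DNA at known motifs. They are RefSeq sequences of GRCm38.p6, the build of the files (mm10), from 250 bases before to 50 after an annotated start, read along the gene, and 7 of the 10 genes had at least 1 such sequence. A set of 5 motifs was searched on both strands, with matches in capitals. The octamer, known as the POU motif, was searched as ATGCAAAT. The core bound by SOX factors was searched as ACAATG. The E-box core, which is part of the element bound by ChREBP, was searched as CACGTG and reads the same on both strands. The core bound by TEAD factors was searched as GGAATG, and that of GATA factors as AGATAA.
Acsbg1 promoter, chr9:54661836-54662135, minus strand: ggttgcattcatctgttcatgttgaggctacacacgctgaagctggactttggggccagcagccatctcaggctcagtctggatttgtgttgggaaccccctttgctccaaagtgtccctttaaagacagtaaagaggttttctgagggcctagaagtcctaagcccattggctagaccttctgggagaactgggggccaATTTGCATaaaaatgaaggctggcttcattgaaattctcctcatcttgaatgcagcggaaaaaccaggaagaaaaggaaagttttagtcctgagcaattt
Mlxipl promoter at its 5′-most start, chr5:135089640-135089939, plus strand: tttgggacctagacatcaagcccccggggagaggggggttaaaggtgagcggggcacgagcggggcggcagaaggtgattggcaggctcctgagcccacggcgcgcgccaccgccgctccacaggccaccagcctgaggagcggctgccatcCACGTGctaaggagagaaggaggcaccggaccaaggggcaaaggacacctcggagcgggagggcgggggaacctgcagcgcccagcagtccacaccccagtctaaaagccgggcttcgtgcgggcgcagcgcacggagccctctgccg
Fabp3 promoter, chr4:130308488-130308787, plus strand: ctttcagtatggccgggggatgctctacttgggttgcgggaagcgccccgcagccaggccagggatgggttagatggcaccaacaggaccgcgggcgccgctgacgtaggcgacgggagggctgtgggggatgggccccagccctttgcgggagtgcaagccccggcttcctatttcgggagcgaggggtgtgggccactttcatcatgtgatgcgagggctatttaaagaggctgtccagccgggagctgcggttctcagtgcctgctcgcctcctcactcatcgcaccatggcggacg
The Acsbg1 promoter held 1 octamer, as its reverse complement ATTTGCAT, which began 50 bases before the start and which 1.74% of all 32851 promoters hold in either orientation. The Mlxipl promoter held 1 E-box core, 98 bases before the start, as did 7.15% of all promoters. None of the 5 motifs was found in the Fabp3 window, nor in the window at the other Mlxipl start (chr5:135106641-135106940). Among the other genes, Plin2 held an E-box core 4 bases before its start and Cpt1a a TEAD core (14.7% of all promoters), and the windows of Acsl4 and Plin3 held none of the 5. The SOX and GATA cores, present in 12.6% and 11.2% of all promoters, were not seen in these 8 windows.

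Fabp3, the heart-type fatty acid binding protein (chr4:130308595-130315463), was far higher in Oct4-KO than in Oct4 Ctrl ICMs. In early ICMs its lowest, median and highest level was 113, 317 and 787 CPM in Ctrl and 1550, 2386 and 4560 CPM in KO embryos. In late ICMs it was 159, 329 and 876 CPM in Ctrl and 2622, 3188 and 4075 CPM in KO embryos. The 8 KO embryos lay above all 8 Ctrl embryos at both stages. The log2 fold change was 3.06 ± 0.37 (SE) in early and 3.12 ± 0.37 in late ICMs, and the ratio of mean CPM was 7.96 and 7.97. In the Sox2 line the groups overlapped. The Sox2 Ctrl early ICMs ran from 39.0 to 110 CPM with a median of 81.8, and the Sox2-KO early ICMs from 74.7 to 350 CPM with a median of 138, a log2 fold change of 1.08 ± 0.37. The late ICMs had medians of 196 CPM in Ctrl and 260 CPM in KO embryos, a log2 fold change of 0.10 ± 0.35. Without the Ctrl embryo at 805 CPM, the Fabp3 change in late ICMs was 0.68.

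Fabp3 also varied within groups, and so did markers of trophectoderm. In the 7 Ctrl and MWT ICM groups, the embryo with the highest Fabp3 had the highest summed level of the 10 trophectoderm markers in 5 groups and was among the top 2 in all 7. This did not hold in every other group. The embryo with the highest Fabp3 ranked 7 of 8 for the marker sum in Oct4-KO late ICMs, 6 of 8 in Sox2-KO morulae, 5 of 8 in Oct4 Ctrl morulae and 4 of 8 in Sox2 Ctrl morulae, and it was among the top 2 in the remaining 5 groups. In the Oct4 Ctrl early ICMs the embryo with the least Fabp3 (113 CPM) had a marker sum of 162 CPM, and the embryo with the most (787 CPM) had 1282 CPM. The Sox2 Ctrl late ICM at 805 CPM of Fabp3 had the highest marker sum of its group, 2851 CPM. Between groups the marker sum ran from 162 to 1282 CPM (median 404) in Oct4 Ctrl early ICMs and from 476 to 1368 CPM (median 829) in Oct4-KO early ICMs. In late ICMs it ran from 153 to 1040 CPM (median 655) in Oct4 Ctrl and from 1262 to 3186 CPM (median 2817) in Oct4-KO embryos, with no marker at 0 in either group. The part of these markers in the Fabp3 difference was not tested.

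**Figure D1:**
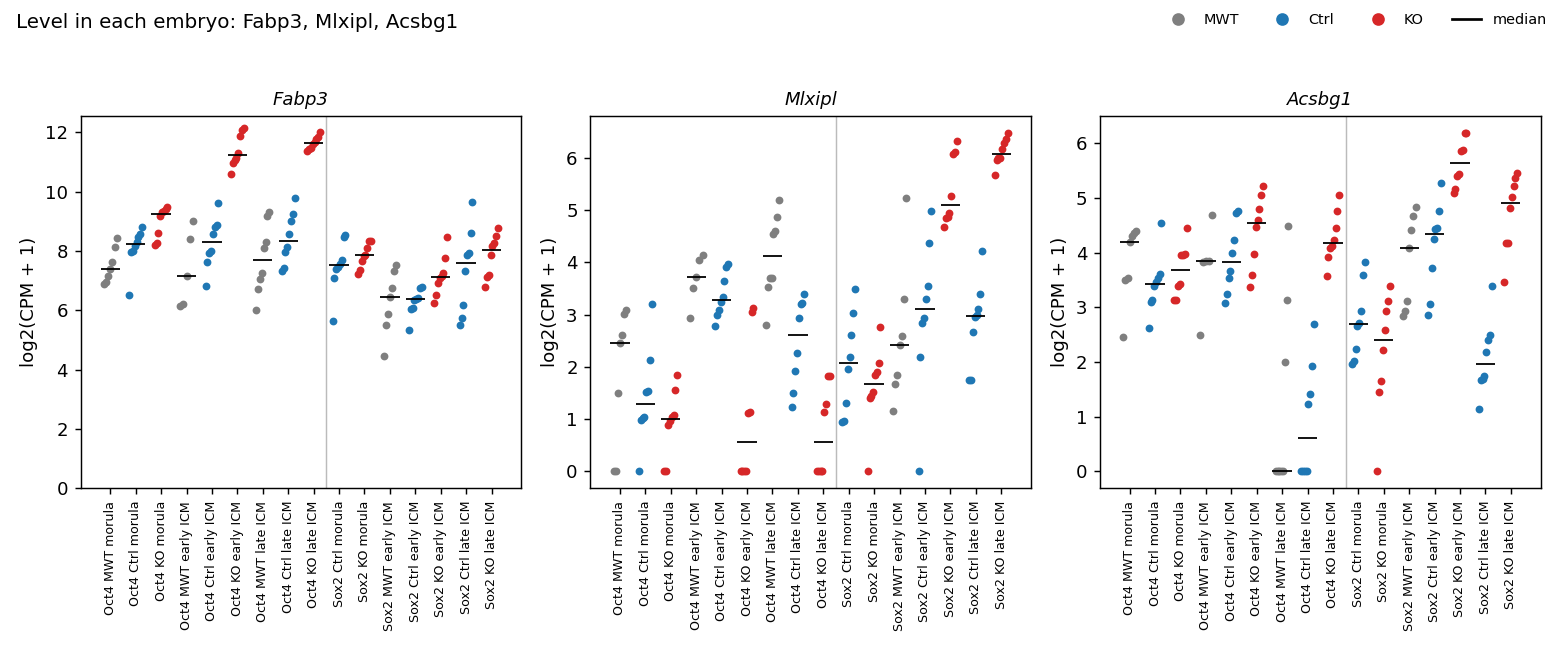
Level of Fabp3, Mlxipl and Acsbg1 in every embryo, as log2(CPM + 1), in the 16 groups of line, genotype and stage (points, embryos; bars, medians; grey line, boundary between Oct4 and Sox2 line). Fabp3 in Oct4-KO ICMs (1550 to 4560 CPM) stands above every other ICM group, Mlxipl is highest in Sox2-KO ICMs and lowest in Oct4-KO ICMs, and the Acsbg1 median is lowest in Ctrl and MWT late ICMs.

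Over all 16 groups, ordered by their medians, Fabp3 was highest in Oct4-KO late and then Oct4-KO early ICMs, whose ranges overlapped each other. The next group, the Oct4-KO morulae, had a median of 604 CPM and did not overlap the Oct4-KO early ICMs. Every later pair of neighbours in the order overlapped, down to the Sox2 Ctrl early ICMs.

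Fabp5, the epidermal-type fatty acid binding protein (chr3:10012548-10016607), differed little between Ctrl and KO ICMs of the Oct4 line. Its median was 1070 CPM in Ctrl and 931 CPM in KO early ICMs, and 927 CPM in Ctrl and 1188 CPM in KO late ICMs, with log2 fold changes of −0.02 ± 0.21 and 0.04 ± 0.21. In the Sox2 line it was higher in KO embryos. Early ICMs had medians of 914 CPM in Ctrl and 1450 CPM in KO embryos (log2 fold change 0.52 ± 0.21). Late ICMs ran from 641 to 1128 CPM in Ctrl and from 1026 to 1957 CPM in KO embryos, all 8 of them above the Ctrl median (0.93 ± 0.21). Fabp3 and Fabp5, paralogs of 1 family, thus had their larger differences in different lines.

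Acsbg1, an acyl-CoA synthetase of the bubblegum family (chr9:54604877-54661870), was higher in the KO late ICMs of both lines. In the Oct4 line the late Ctrl embryos ran from 0 to 5.47 CPM with a median of 0.67, on 8 UMIs in all and with 4 of 8 embryos at 0, and the late KO embryos ran from 10.9 to 32.2 CPM with a median of 17.2, on 116 UMIs. In the Sox2 line the late Ctrl embryos ran up to 9.49 CPM (median 2.95) and the late KO embryos from 9.98 to 43.0 CPM (median 29.2). The KO embryos lay above all Ctrl embryos of their line in both. The log2 fold changes were 3.67 ± 0.50 and 2.99 ± 0.39. The log2 ratio of mean CPM in the Oct4 line, 3.78 over all late embryos, was 4.54 without the Ctrl embryo at 5.47 CPM, and the Acsbg1 change was 1.89 with limma on the rlog values. In early ICMs the Oct4 line overlapped (7.46 to 26.1 CPM in Ctrl, 9.36 to 36.2 CPM in KO, 0.57 ± 0.32), whereas 6 of 8 Sox2-KO embryos were above every Ctrl embryo (6.23 to 37.8 CPM in Ctrl, 33.3 to 71.9 CPM in KO, 1.51 ± 0.30). In the Oct4 line the Ctrl mean was 15.3 CPM in early and 1.41 CPM in late ICMs, and the KO means were 21.8 and 19.3 CPM.

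Acsl4, an acyl-CoA synthetase with a preference for arachidonic acid (chrX:142317993-142390535), had overlapping groups in Ctrl and KO ICMs. Its medians in the Oct4 line were 46.2 CPM in Ctrl and 84.0 CPM in KO early ICMs (log2 fold change 0.84 ± 0.44) and 16.1 and 37.9 CPM in late ICMs (0.67 ± 0.55). In the Sox2 line the log2 fold changes were 0.61 ± 0.47 and 0.27 ± 0.48, and the latter was −0.24 over the embryos with shared numbers. Among the Oct4-line morulae Acsl4 fell into separate ranges. Of 23 Oct4-line morulae, 8 lay between 14.2 and 78.1 CPM and 15 between 146 and 432 CPM, with none between. The low embryos were 2 of the 7 MWT, 3 of the 8 Ctrl and 3 of the 8 KO morulae, so that the gap ran through every genotype of that line. The 16 Sox2-line morulae showed no such gap, with embryos at 105, 138 and 139 CPM inside it. The dividing level of 100 CPM was set after the values were seen.

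Dgat1 and Dgat2, which catalyse the last step of triglyceride synthesis, took opposite directions in part. Dgat1 (chr15:76502015-76511953) had medians of 29.0 CPM in Ctrl and 44.9 CPM in KO early ICMs of the Oct4 line (0.62 ± 0.23) and of 29.3 and 17.6 CPM in the Sox2 line (−0.69 ± 0.25). In late ICMs the values were 19.6 and 28.0 CPM in the Oct4 line (0.58 ± 0.26) and 30.2 CPM in Ctrl and at most 29.0 CPM in KO embryos of the Sox2 line (−0.45 ± 0.25), and all 8 Sox2-KO late ICMs were below the Ctrl median. Dgat1 was thus on the higher side of Ctrl in Oct4-KO and on the lower side in Sox2-KO ICMs at both stages, with overlapping groups throughout. Dgat2 (chr7:99153658-99182719) was on the lower side in Oct4-KO early ICMs (medians 17.2 CPM in Ctrl and 6.57 CPM in KO, −0.52 ± 0.44) and on the higher side in Oct4-KO late ICMs (4.80 and 10.2 CPM, 0.96 ± 0.54). It was on the higher side in Sox2-KO early (12.8 and 30.3 CPM, 0.81 ± 0.40) and late ICMs (11.5 and 15.8 CPM, 1.21 ± 0.44).

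Of the droplet coat proteins, Plin2, a perilipin found on most droplets (chr4:86648386-86670060), was higher in late KO ICMs of both lines. Late Oct4 Ctrl embryos ran from 116 to 220 CPM and Oct4-KO embryos from 143 to 335 CPM (0.76 ± 0.22), and late Sox2 Ctrl embryos from 66.2 to 184 CPM and Sox2-KO embryos from 127 to 268 CPM (0.90 ± 0.22). All 8 KO embryos exceeded the Ctrl median in each line. In early ICMs the log2 fold changes were 0.07 ± 0.21 in the Oct4 and 0.26 ± 0.22 in the Sox2 line. Plin3, a perilipin of nascent droplets (chr17:56277476-56292873), had log2 fold changes between −0.11 and 0.33 in the 4 comparisons. The labels of Ctrl and KO late ICMs carry a prefix, 1 or 2, whose meaning is not stated. Plin3 separated by it in the Sox2 line, at 121 to 218 CPM (prefix 1) and 308 to 377 CPM (prefix 2) in Ctrl and at 154 to 202 and 251 to 353 CPM in KO late ICMs. With the prefix as a block the Plin3 change there was −0.02, as without it. The trophectoderm marker sum separated by prefix in Sox2-KO late ICMs, at 1005 to 1821 CPM (prefix 1) and 596 to 819 CPM (prefix 2). It did not do so in Sox2 Ctrl late ICMs. For Acsbg1, every Oct4 Ctrl late ICM with prefix 2 was at 0 CPM, against 0 to 5.47 CPM with prefix 1. The log2 fold changes of Cpt1a, the liver form of the mitochondrial gatekeeper enzyme (chr19:3322334-3385733), were between −0.34 and −0.12.

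**Figure D2:**
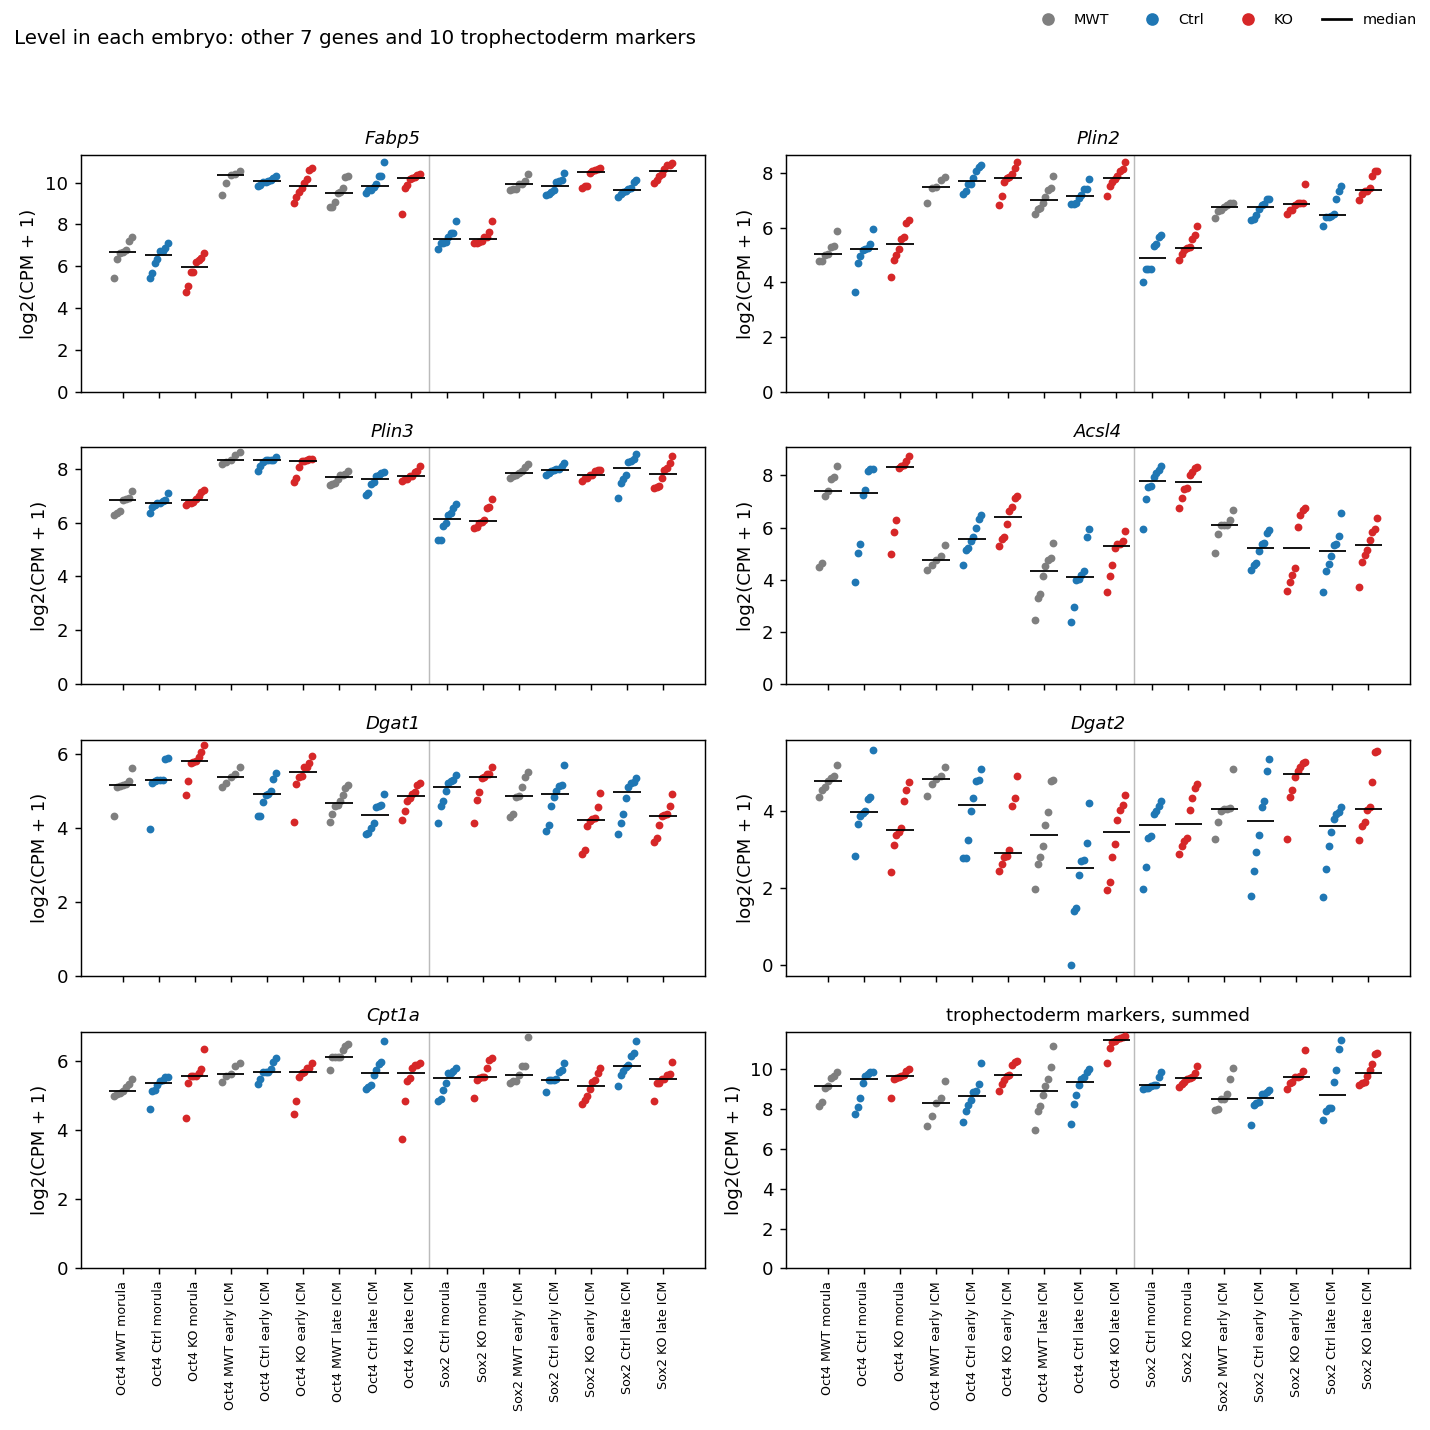
Level of the other 7 genes, and the summed level of 10 trophectoderm markers, in every embryo as log2(CPM + 1) over the 16 groups (points, embryos; bars, medians; grey line, boundary between the lines). The medians of Fabp5, Plin2 and Plin3 are higher in every ICM group than in every morula group, and those of Acsl4 are lower.

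Mlxipl, the gene of ChREBP (chr5:135089890-135138382), was lower in Oct4-KO and higher in Sox2-KO ICMs. In Oct4-line early ICMs it ran from 5.93 to 14.6 CPM (median 8.79, 66 UMIs) in Ctrl and from 0 to 7.78 CPM (median 0.59, 15 UMIs) in KO embryos. In late ICMs it ran from 1.34 to 9.57 CPM (median 5.25, 29 UMIs) in Ctrl and from 0 to 2.57 CPM (median 0.60, 6 UMIs) in KO embryos. With label prefix 1 the late Ctrl embryos were at 2.78 to 9.57 CPM and the late KO embryos at 0 to 1.45 CPM. With prefix 2 they were at 1.34 to 3.80 and at 0 to 2.57 CPM, so that the groups overlapped there. All 8 KO embryos were below the Ctrl median at both stages, with 4 of 8 at 0, and the log2 fold changes were −2.02 ± 0.54 and −2.21 ± 0.73. With limma on the rlog values they were −1.15 and −0.73, and over the embryos with shared numbers the early change was −4.16, with the block and without it. At the early stage, leaving out either of the KO embryos at 7.78 and 7.32 CPM took the log2 ratio of mean CPM from −2.16 to as low as −2.82. In Sox2-line early ICMs it ran from 0 to 30.5 CPM (median 7.75) in Ctrl and from 24.5 to 79.5 CPM (median 33.5) in KO embryos. In late ICMs it ran from 2.36 to 17.7 CPM (median 6.85) in Ctrl and from 49.9 to 88.1 CPM (median 66.8) in KO embryos, with no overlap. The log2 fold changes were 2.13 ± 0.37 and 3.31 ± 0.39. The few UMIs behind the Oct4-KO values limit how far below Ctrl they can be placed.

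**Figure D3:**
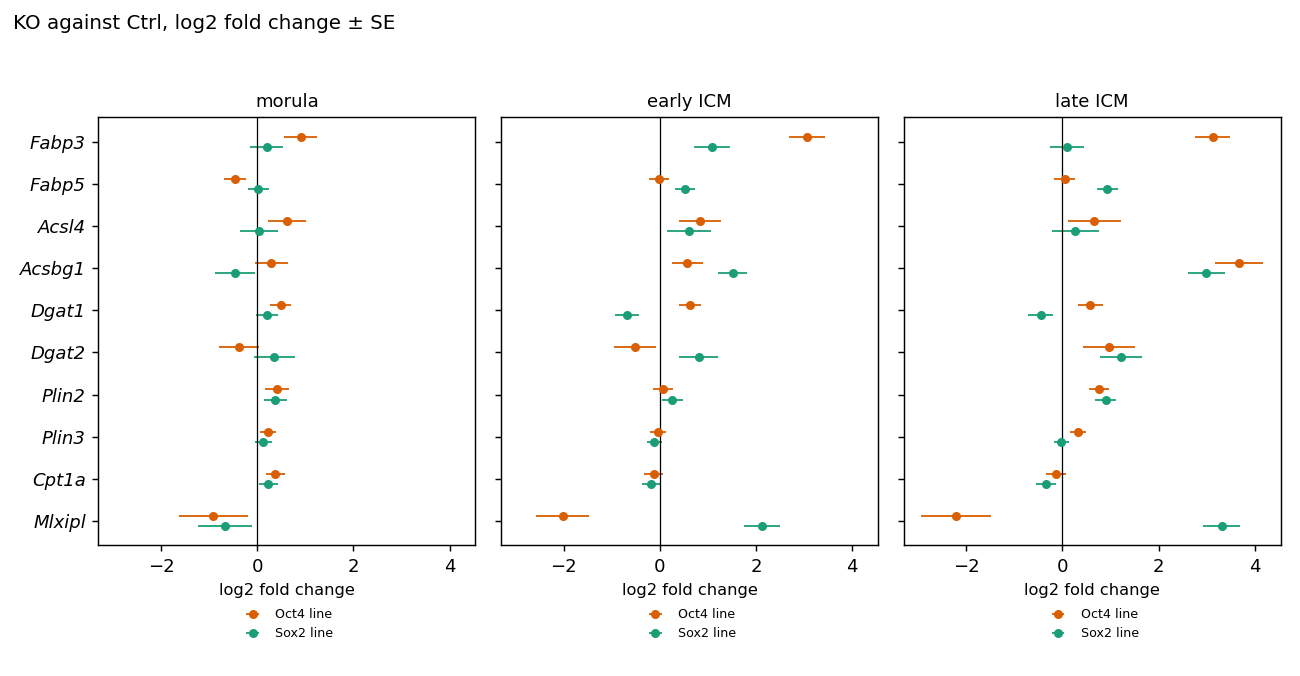
Log2 fold change of KO against Ctrl embryos (points) with its standard error (bars) for the 10 genes at the 3 stages, in the Oct4 and the Sox2 line. Fabp3 is high in ICMs of the Oct4 line (3.06 and 3.12), Acsbg1 is high in late ICMs of both lines, and Mlxipl points in opposite directions in the lines.

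Taking the thresholds used for all genes, an adjusted p under 0.05 and a log2 fold change of at least 1 in size, the members past them were Fabp3 and Mlxipl in Oct4-KO early ICMs (background over all 14053 genes, 10.9%), Fabp3, Acsbg1 and Mlxipl in Oct4-KO late ICMs (18.1%), Acsbg1 and Mlxipl in Sox2-KO early ICMs (3.26%), and Acsbg1, Mlxipl and Dgat2 in Sox2-KO late ICMs (6.97%). With limma on the rlog values the count was 2 in Oct4-KO late ICMs, where Mlxipl was under 2-fold, and 2 in Sox2-KO late ICMs, where Dgat2 was at 0.82. DESeq2 gave 3 in Sox2-KO early ICMs. Nothing is read from these counts, because the genes were chosen on these contrasts.

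Morulae were not part of the choice, and there the KO was tested. In Oct4-KO against Ctrl morulae, no member passed edgeR's quasi-likelihood test (2 of 10 at an unadjusted p under 0.05, none by DESeq2 or limma), against 0.804% of all genes. Fabp3 came closest. It ran from 90.3 to 445 CPM with a median of 300 in Ctrl and from 294 to 716 CPM with a median of 604 in KO morulae, and 5 of 8 KO embryos were above every Ctrl embryo. The log2 fold change was 0.91 ± 0.35 (edgeR adjusted p = 0.20), so Fabp3 did not pass over all genes. The other member with an unadjusted p under 0.05 was Dgat1, with medians of 37.8 CPM in Ctrl and 54.3 CPM in KO morulae (0.49 ± 0.22, edgeR adjusted p = 0.318). Plin2 was not called here (0.41 ± 0.25, edgeR adjusted p = 0.539). It was called with embryo number as a block, over the embryos with shared numbers (1.115, edgeR adjusted p = 0.00511). In Sox2-KO against Ctrl morulae, no member passed (none of 10 at an unadjusted p under 0.05, none by DESeq2 or limma), against 0.00712% of all genes. Mlxipl and Acsbg1, which were higher in Sox2-KO ICMs, had log2 fold changes of −0.67 ± 0.56 and −0.46 ± 0.41 in these morulae.

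The course with stage was tested in Ctrl embryos of both lines and in Oct4 MWT embryos. The Ctrl ICMs are the same embryos that served in the KO contrasts, whereas the MWT embryos took no part in the choice. For Fabp3, Mlxipl and Acsbg1, which were chosen on those contrasts, the changes in Ctrl embryos are therefore given without p-values, and the Ctrl counts below include them. From morula to early ICM, 5 members passed in Oct4 Ctrl (4 up, 1 down, against 29% of all genes), 7 in Sox2 Ctrl (5 up, 2 down, against 31.9%) and 5 in Oct4 MWT embryos (4 up, 1 down, against 27.6%). Fabp5 rose most in each. In MWT embryos it ran from 43.0 to 170 CPM in morulae and was 686, 1013, 1322, 1382 and 1496 CPM in the 5 early ICMs, with no overlap and a log2 fold change of 3.32 ± 0.27 (edgeR adjusted p = 7.05e-20). In Ctrl embryos the change was 3.52 ± 0.24 in the Oct4 line and 2.41 ± 0.23 in the Sox2 line (edgeR adjusted p = 2.77e-23 and 3.21e-16).

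Both droplet coat genes rose with Fabp5. Plin2 was at 26.4 to 58.0 CPM in MWT morulae and at 119, 173, 180, 215 and 234 CPM in MWT early ICMs (2.21 ± 0.26, edgeR adjusted p = 2.63e-12), and it rose by 2.60 ± 0.24 and 1.61 ± 0.24 in Oct4 and Sox2 Ctrl embryos. Plin3 rose by 1.55 ± 0.18 in MWT (edgeR adjusted p = 4.33e-12) and by 1.42 ± 0.17 and 1.77 ± 0.17 in Ctrl embryos. Mlxipl rose from a lower level in MWT embryos, by 1.58 ± 0.57 (edgeR adjusted p = 0.0187), a call lost without early ICM number 7 (1.43, edgeR adjusted p = 0.0545). In Ctrl embryos its change was 1.92 ± 0.52 in the Oct4 and 1.34 ± 0.45 in the Sox2 line, the latter 0.75 with thinned counts and 0.72 with limma. Without the Oct4 Ctrl morula at 8.24 CPM the log2 ratio of mean CPM of Mlxipl went from 2.083 to 2.746. Acsl4 fell in all 3 series, from a median of 169 to 25.9 CPM in MWT embryos (−2.76 ± 0.56, edgeR adjusted p = 2.53e-05), with changes of −1.78 ± 0.44 and −2.64 ± 0.45 in Oct4 and Sox2 Ctrl embryos. The Acsl4 groups overlapped in the Oct4 line, where the low morulae were at 21.3 and 23.7 CPM in MWT and at 14.2, 31.4 and 40.6 CPM in Ctrl embryos, all below the highest early ICM of their series (39.0 and 87.4 CPM), and they did not overlap in Sox2 Ctrl embryos. In Sox2 Ctrl embryos Acsbg1 changed by 1.46 ± 0.35 and Fabp3 by −1.44 ± 0.37, and both are among the 7 counted there. Neither passed in MWT embryos. Dgat1, Dgat2 and Cpt1a passed in none of the 3.

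From early to late ICM, 2 members passed in Oct4 Ctrl (both down, against 15.6% of all genes), 2 in Sox2 Ctrl (1 up, 1 down, against 2.9%) and 1 in Oct4 MWT embryos (down, against 13.2%). The gene in MWT embryos was Acsbg1 (−1.75 ± 0.53, edgeR adjusted p = 0.00748). It was at 4.62, 13.3, 13.4, 13.4 and 24.96 CPM in MWT early ICMs, and in late ICMs 5 of 8 embryos were at 0 and the highest at 21.3 CPM, so that the groups overlapped. Without the late embryo at 21.3 CPM the log2 ratio of mean CPM of Acsbg1 in MWT embryos went from −1.79 to −3.17. The MWT call of Acsbg1 was lost with thinned counts (edgeR adjusted p = 0.0531) and with only the groups compared in the fit (0.0826), and in the latter fit Dgat2 was called in its place (−1.09, edgeR adjusted p = 0.0427, against −1.07 ± 0.45 and 0.0668 as reported). In Ctrl embryos, whose late ICMs took part in its choice, the Acsbg1 change was −3.18 ± 0.52 in the Oct4 and −2.35 ± 0.40 in the Sox2 line. In Oct4 Ctrl embryos the log2 ratio of mean CPM was −3.45, and −4.21 without the late embryo at 5.47 CPM.

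Dgat2 fell in Oct4 Ctrl embryos (−1.54 ± 0.51, edgeR adjusted p = 0.0127), a call lost with limma (−0.92, under 2-fold). Acsl4 did not pass there (−1.15 ± 0.52, edgeR adjusted p = 0.0814), but it was called with no filter (−1.22, edgeR adjusted p = 0.0469) and with only the groups compared (−1.19, edgeR adjusted p = 0.0112), which made 3 members in each. Plin3 fell by less than 2-fold in the Oct4 line (−0.64 ± 0.16 in Ctrl and −0.75 ± 0.18 in MWT embryos, edgeR adjusted p = 0.00136 and 0.000532), as did Plin2 in Ctrl (−0.55 ± 0.21, edgeR adjusted p = 0.0386) and Dgat1 in MWT embryos (−0.67 ± 0.26, edgeR adjusted p = 0.0417). In Sox2 Ctrl embryos the 2 members counted were Acsbg1 and Fabp3, both chosen on Ctrl ICMs. Fabp3 ran from 39.0 to 110 CPM in early and from 44.2 to 805 CPM in late ICMs (1.62 ± 0.37), with 5 of 8 late embryos above every early embryo, and its log2 fold change was 1.04 without the embryo at 805 CPM.

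**Figure D4:**
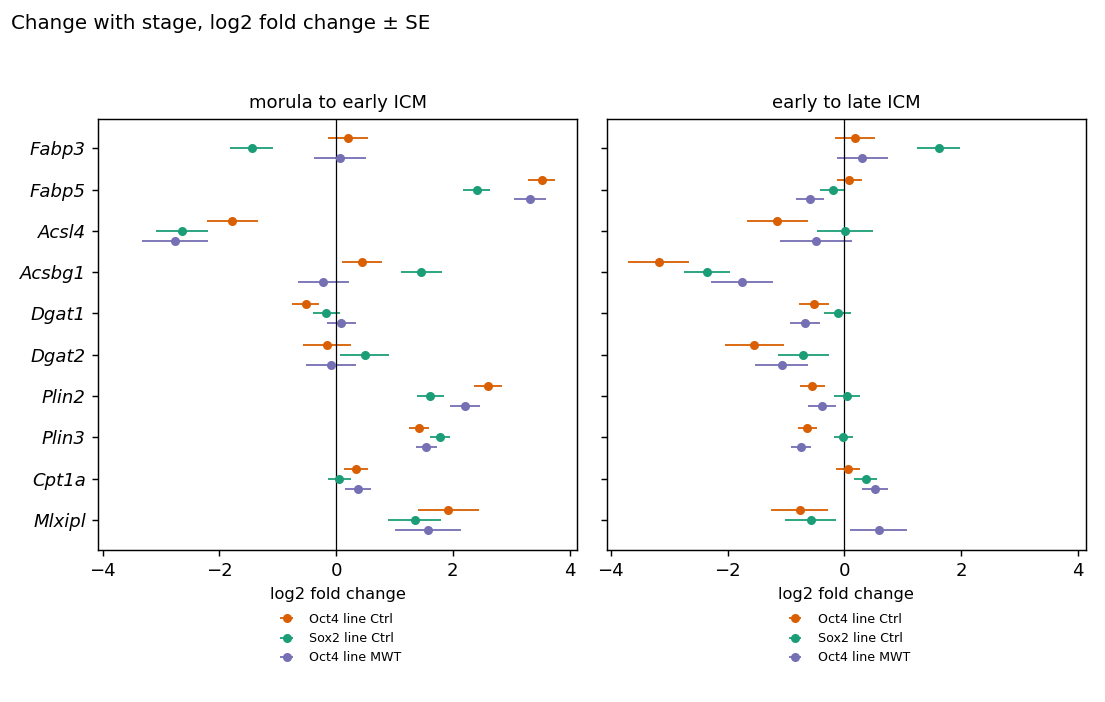
Log2 fold change from morula to early ICM and from early to late ICM (points) with its standard error (bars) for the 10 genes in Oct4 Ctrl, Sox2 Ctrl and Oct4 MWT embryos. Fabp5, Plin2, Plin3 and Mlxipl lie above 0 and Acsl4 below 0 in the first step in all 3 series, and Acsbg1 lies below 0 in the second.

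Whether the mother's allele mattered was asked by comparing MWT with Ctrl embryos, both of which kept the paternal allele. The Ctrl ICMs again took part in the choice of Fabp3, Mlxipl and Acsbg1. No member passed edgeR's test in Oct4 morulae (none of 10 at an unadjusted p under 0.05, none by DESeq2 or limma, against 0.0646% of all genes), in Oct4 early ICMs (none, none and none, against 0.373%) or in Sox2 early ICMs (none, none and none, against 2.58%). In Oct4 late ICMs none passed either (4 of 10 at an unadjusted p under 0.05, 1 by DESeq2 and 1 by limma, against 0.804%). The gene called by the other tools was Mlxipl, which ran from 1.34 to 9.57 CPM in Ctrl and from 5.94 to 35.6 CPM in MWT late ICMs, with all 8 MWT embryos above the Ctrl median. Its log2 fold change was 1.67 ± 0.50, given without a p-value because these Ctrl embryos took part in its choice. For the same reason nothing is read from its calls by the other tools. Mlxipl in Oct4-line late ICMs thus had medians of 17.2 CPM in MWT, 5.25 CPM in Ctrl and 0.60 CPM in KO embryos. The title and source name disagree on the stage of these MWT embryos. The other 3 were Fabp5 (−0.57 ± 0.22), Dgat2 (1.07 ± 0.51) and Cpt1a (0.40 ± 0.19), with edgeR adjusted p of 0.186, 0.326 and 0.334.

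To place the 10 genes in their pathway, 96 further genes of uptake and activation, triglyceride synthesis, droplets, β-oxidation and lipid transcription factors with ChREBP targets were tested, of which 75 passed the detection filter. In Oct4-KO early ICMs 6 of 75 passed (8%, 1 up and 5 down), in Oct4-KO late ICMs 11 (14.7%, 7 up and 4 down), in Sox2-KO late ICMs 6 (8%, all up), and at the early stage of the Sox2-KO none by edgeR (11 at an unadjusted p under 0.05, none by DESeq2, 1 by limma). The share was near that of all genes in 3 of these comparisons (10.9%, 18.1% and 6.97%) and under it in Sox2-KO early ICMs (3.26%). The median log2 fold change of the 75 genes was −0.11, 0.15, 0.04 and 0.09 in Oct4 early, Oct4 late, Sox2 early and Sox2 late ICMs, against 0.01, 0.00, −0.01 and 0.00 over all genes. In morulae 1 of 75 passed in the Oct4 line by edgeR (1.33%, against 0.804% of all genes). In the Sox2 line none passed (none at an unadjusted p under 0.05, none by DESeq2 or limma), against 0.00712% of all genes.

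Of the droplet genes, Hilpda rose in Oct4-KO ICMs and Soat1 in late ICMs of both lines. Hilpda, a protein that inhibits the lipase ATGL on droplets, ran from 13.8 to 29.2 CPM in Ctrl and from 36.4 to 79.6 CPM in Oct4-KO early ICMs (1.38 ± 0.25, edgeR adjusted p = 9.18e-06), with no overlap. In late ICMs it ran from 10.7 to 52.7 CPM in Ctrl and from 50.3 to 188 CPM in KO embryos (2.23 ± 0.25, edgeR adjusted p = 1.8e-12). In the Sox2 line its change was 0.09 ± 0.27 and 0.41 ± 0.27, and the difference between lines passed in both early (1.29 ± 0.37, edgeR adjusted p = 0.0156) and late ICMs (1.82 ± 0.37, edgeR adjusted p = 0.000241). Soat1, which makes cholesterol esters, rose by 2.03 ± 0.33 in the Oct4 and 1.38 ± 0.32 in the Sox2 line (edgeR adjusted p = 5.54e-07 and 0.00101). A single Oct4-KO embryo reached 441 CPM of Soat1, against a group median of 110 CPM. The droplet list as a whole held 3, 3, 0 and 1 of 14 genes called in Oct4 early (1 up, 2 down), Oct4 late (all up), Sox2 early and Sox2 late ICMs, against 10.9%, 18.1%, 3.26% and 6.97% of all genes. Its median log2 fold changes were 0.15, 0.75, 0.10 and 0.09, against 0.01, 0.00, −0.01 and 0.00 over all genes.

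Of the genes of β-oxidation, Acaa2 fell in early and Acadl rose in late ICMs of the Oct4-KO. Acaa2, the thiolase of the last step, ran from 118 to 226 CPM in Ctrl and from 6.25 to 44.5 CPM in Oct4-KO early ICMs (−2.80 ± 0.26, edgeR adjusted p = 1.49e-15). It had already fallen in Oct4-KO morulae, from a mean of 31.9 to 10.6 CPM (−1.53 ± 0.30, edgeR adjusted p = 0.000739), where it was the gene of the 75 that passed. In Sox2-KO early ICMs its change was −0.25 ± 0.22, and the lines differed in early (−2.55 ± 0.34, edgeR adjusted p = 1.31e-08) and late ICMs (−1.07 ± 0.33, edgeR adjusted p = 0.0292), where the Acaa2 changes were −0.57 ± 0.25 in the Oct4 and 0.50 ± 0.22 in the Sox2 line. Acadl, the long-chain acyl-CoA dehydrogenase, rose in late ICMs of both lines, by 1.20 ± 0.17 in the Oct4 and 1.28 ± 0.16 in the Sox2 line (edgeR adjusted p = 1.08e-08 and 1.99e-09). Its late Ctrl embryos had medians of 121 and 202 CPM and its late KO embryos of 257 and 464 CPM. In the β-oxidation list 1, 1, 0 and 2 of 17 genes passed in Oct4 early, Oct4 late, Sox2 early and Sox2 late ICMs. These shares of 5.88%, 5.88%, 0% and 11.8% stand against 10.9%, 18.1%, 3.26% and 6.97% of all genes.

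Among the regulators and ChREBP targets, Txnip, an arrestin-like gene known as a target of ChREBP and its paralog, fell in Oct4-KO and rose in Sox2-KO late ICMs. It ran from 12.7 to 66.0 CPM in Oct4 Ctrl and from 3.12 to 24.4 CPM in Oct4-KO late ICMs (−1.66 ± 0.47, edgeR adjusted p = 0.00336). In the Sox2 line it ran from 1.18 to 50.9 CPM in Ctrl and from 22.9 to 212 CPM in KO late ICMs (2.23 ± 0.40, edgeR adjusted p = 1.61e-05). The difference between the lines was −3.89 ± 0.61 (edgeR adjusted p = 1.94e-06). At the early stage Txnip was low in the Oct4 line, with medians of 2.40 CPM in Ctrl and 2.35 CPM in KO embryos, and did not pass in either line. Srebf2, the factor of sterol synthesis genes, fell in Oct4-KO early (−2.27 ± 0.58, edgeR adjusted p = 0.00213) and late ICMs (−1.12 ± 0.38, edgeR adjusted p = 0.0161). Rxra, the partner of PPAR receptors, rose in Oct4-KO late ICMs (1.63 ± 0.29, edgeR adjusted p = 2.22e-06). In this list 1, 4, 0 and 2 of 20 genes (5%, 20%, 0% and 10%) passed in the same order of comparisons. The shares over all genes were 10.9%, 18.1%, 3.26% and 6.97%.

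In the triglyceride synthesis list, 1, 3, 0 and 1 of 13 genes passed (7.69%, 23.1%, 0% and 7.69%). The shares over all genes were 10.9%, 18.1%, 3.26% and 6.97%. Among those that passed was Gpat2, a glycerol-3-phosphate acyltransferase, which fell in Oct4-KO late ICMs (−1.34 ± 0.37, edgeR adjusted p = 0.00312). None of the 11 uptake and activation genes tested passed in any of the 4 comparisons by edgeR (3, 1, 0 and 2 at an unadjusted p under 0.05, other tools not counted for this list). Over all 75 genes, the KO effects of the lines differed for 5 genes in early and for 4 in late ICMs, against 5.52% and 6.33% of all genes.

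**Figure D5:**
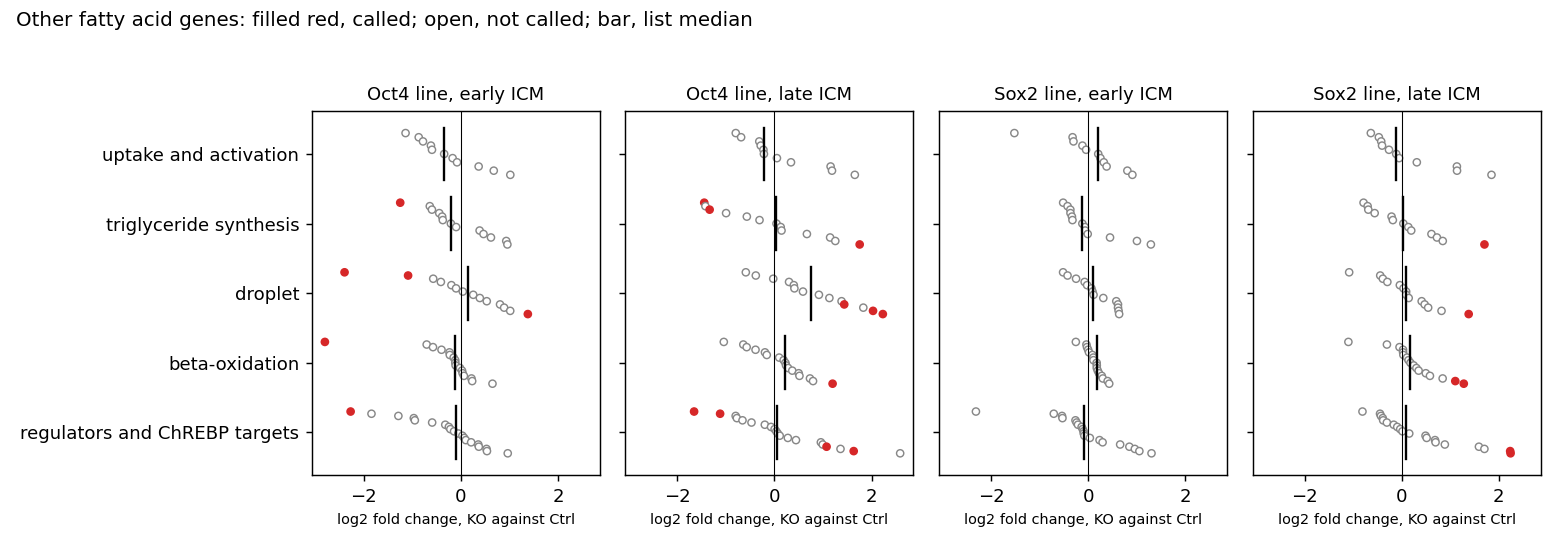
Log2 fold change of KO against Ctrl ICMs for the 75 further genes tested, by list (filled red, called; open, not called; vertical bar, list median), in the 4 ICM comparisons. In the Oct4 line the droplet list holds the highest median (0.75 at the late stage), and no gene is called in Sox2-KO early ICMs.

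The genes whose mean level over the 16 groups was most like that of the 3 leading members were found by Pearson's r of log2(CPM + 1) among 7919 genes that reached 20 CPM in a group. These are descriptions over groups that share line, stage and isolation. For Fabp3 they were Hgsnat, a lysosomal acetyltransferase (r = 0.934), Cgnl1, a junction protein (0.926), and Gm2a, the GM2 activator protein (0.89). Gm2a had means of 364 and 236 CPM in Oct4 Ctrl early and late ICMs and of 1235 and 2104 CPM in Oct4-KO ICMs. For Mlxipl they were Tbc1d1, a Rab GTPase-activating protein (0.911), Oas1e, of the oligoadenylate synthetase family (0.907), and Tmbim1 (0.891). Oas1e had means of 25.4 and 29.7 CPM in Sox2-KO early and late ICMs and of 0.44 and 0.87 CPM in the Oct4-KO ICMs. For Acsbg1 they were Npl, a lyase of sialic acid breakdown (0.873), Fam234a (0.862) and Dap (0.859).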

How the data were processed

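Single-embryo 3′-end RNA-seq of 48 Ctrl, 48 KO and 27 MWT embryos was used. By their methods, the authors read UMIs off with UMI-tools, removed poly-A stretches (Cutadapt), mapped reads to mm10 with TopHat2 and GENCODE transcripts, assigned them with featureCounts and corrected the number of molecules with TRUmiCount. The deposited UMI table holds whole-number counts for 29022 genes without normalization, and the deposited rlog table, on a log2 scale made by the authors with DESeq2, holds 15747 genes and served in 1 alternative. The strand setting of featureCounts is not given in the sources used here. Fabp3, which overlaps Zcchc17 and Gm10570 on the opposite strand, and Mlxipl, which overlaps an antisense gene in GENCODE vM21, may thus hold reads of a partner gene. Fabp3-ps1, a processed pseudogene, had 1 UMI in all.

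Groups came from the labels. The 10 members, the lists of pathway and marker genes, and the rules for naming genes were chosen with earlier results of these data known. Named pathway genes are, per KO ICM comparison, those that rank in the 3 lowest or 3 highest by log2 fold change once called genes under 20 CPM in both group means are set aside. A gene so named is also given in other comparisons. To these come the 3 genes most like Fabp3, Mlxipl and Acsbg1. The filter asked for a UMI in 0.5 or more of the embryos at any 1 stage, which left 14053 genes in the 96 Ctrl and KO embryos (12 groups) and 13923 when MWT embryos were included (16 groups). Counts were scaled by TMM and entered a quasi-likelihood model of group means (edgeR 4.0.16, glmQLFit and glmQLFTest, under R 4.3.3), and p-values were adjusted over all genes by Benjamini-Hochberg. Calls needed an adjusted p under 0.05 and a change of 1 or more in size on the log2 scale. The SE is the absolute log2 fold change divided by the square root of F. CPM were computed on total UMIs. The p-values measure the spread between the embryos sampled. Within groups, the lowest chi-square per gene between 2 embryos was 2.41 over 416 pairs, so no library appeared as entered again. The scripts were tested on simulated data. Alternatives were DESeq2 1.42.0, limma 3.58.1 on the rlog values, scaling by totals, no filter, thinned counts, other sets of embryos, blocks by embryo number or, in late ICMs, by the prefix of that number, and leaving out embryos. Fabp1 belonged to the uptake and activation list and is not described on its own here.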

Additional observations from a re-analysis of the deposited data

Results flagged for a closer look

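In 160 combinations of a gene and a group, 17 had an embryo far from the others by Dixon's ratio, each time the highest embryo. By chance the ratio flags about 1 in 20 where values are normally distributed. CPM of few UMIs need not be, so the rate expected here is not known. Fabp3 was at 805 CPM in 1 Sox2 Ctrl late ICM. Fabp5 was at 2056 CPM in an Oct4 Ctrl late ICM, 288 CPM in a Sox2 Ctrl morula and 282 CPM in a Sox2-KO morula. Plin2 was at 58.0 CPM in an Oct4 MWT morula and 193 CPM in a Sox2-KO early ICM. Mlxipl was at 8.24 CPM in an Oct4 Ctrl morula, 17.7 CPM in a Sox2 Ctrl late ICM and 36.7 CPM in a Sox2 MWT early ICM. Acsbg1 was at 22.3 CPM in an Oct4 Ctrl morula, 21.3 CPM in an Oct4 MWT late ICM and 9.49 CPM in a Sox2 Ctrl late ICM. Dgat2 was at 17.4 CPM in an Oct4 Ctrl late ICM, 46.9 CPM in an Oct4 Ctrl morula and 33.1 CPM in a Sox2 MWT early ICM. Cpt1a was at 94.5 CPM in an Oct4 Ctrl late ICM and 103 CPM in a Sox2 MWT early ICM.

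The KO effects of the lines differed by edgeR's test of the difference (Oct4 minus Sox2, log2). In early ICMs the difference was −2.55 for Acaa2, 1.29 for Hilpda and −2.01 for Srebf2. In late ICMs it was −1.07 for Acaa2, 1.82 for Hilpda and −3.89 for Txnip. For Mlxipl in ICMs, every KO embryo of the Oct4 line was below and every KO embryo of the Sox2 line above its Ctrl median. The log2 ratio of mean CPM was −2.16 in the Oct4 and 2.07 in the Sox2 line in early ICMs, and −2.46 and 3.24 in late ICMs. This difference was not tested, because Mlxipl was chosen on these contrasts.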

How the results depend on the processing

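No called change or count reversed. Of the KO changes described in ICMs without a call, several near 0 took both signs. In Sox2-KO ICMs, Acsl4 at the late stage ran from −0.24 to 0.35 and Cpt1a at the early stage from −0.25 to 0.12. In Oct4-KO ICMs, at the early stage Plin2 ran from −0.40 to 0.08 and Plin3 from −0.11 to 0.11, and Fabp5 from −0.11 to 0.00 (early) and −0.05 to 0.08 (late). Of the counts of calls under alternatives, 184 stayed within 1.5 times of the count reported and 22 did not. Among the members, the count for Oct4 MWT against Ctrl late ICMs went from 0 to 1 with scaling by library totals, limma and DESeq2. The gene added was each time Mlxipl, whose choice used these Ctrl embryos, so nothing is read from that. From early to late ICM the count went from 2 to 1 with limma in both Ctrl lines. In Sox2 Ctrl it also went from 2 to 1 without the embryo at 805 CPM of Fabp3, an alternative chosen after seeing the data. In Oct4 MWT it went from 1 to 0 with thinned counts. Among the other pathway genes, limma gave 3 in place of 6 in Oct4-KO early ICMs, 7 in place of 11 in Oct4-KO late ICMs, 1 in place of 0 in Sox2-KO early ICMs and 3 in place of 6 in Sox2-KO late ICMs. Genes that differed between lines in early ICMs went from 5 to 3 with no filter and to 2 with thinned counts and with limma, and in late ICMs from 4 to 2 with thinned counts. With only the groups compared, Oct4-KO morulae gave 2 in place of 1. The cause was not tested. The member changes tested kept their call in 1005 of 1020 alternatives. Of the KO changes described in ICMs, Acsbg1 in the Oct4 late stage was 1.89 with limma on rlog values, and Mlxipl in the Oct4 early stage was −4.16 over the embryos with shared numbers, with the block and without it. With limma Mlxipl was −1.15 in the Oct4 early and −0.73 in the Oct4 late stage, and Dgat2 0.82 in the Sox2 late stage, the latter pair under 2-fold.

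Embryo numbers did not pair the samples: the correlations of same-numbered embryos ran from −0.355 to 0.418, and no comparison with 3 or more pairs had all over 0.1. With the replicate block, Oct4-KO morulae gave 1 member (Plin2) in place of 0 and 2 pathway genes in place of 1. Sox2-KO early ICMs gave 4 members in place of 2 and 1 pathway gene in place of 0. With the prefix of the late ICM labels (1 or 2) as a block instead, 3 members were called in each line, as without it, and 10 in place of 11 pathway genes in Oct4-KO and 6 in Sox2-KO late ICMs. Nothing is read from these member counts in KO ICMs, because the genes were chosen on those contrasts. The block by number used only embryos with shared numbers. Those embryos without the block, added after seeing the data, gave 1 pathway gene in Sox2-KO early ICMs and 2 in place of 6 in Sox2-KO late ICMs. No fit with a block by number was made for Oct4-KO late ICMs (1 shared number) or for Sox2-KO morulae and Oct4 MWT late ICMs (0 shared).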
